A study of Rattus norvegicus with 24 samples.

Results

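The miR-200 family was examined on rat miR arrays through the 3p arms of its hairpins. Members were found by name among the 758 miRs of the array, and 5 were present: rno-miR-141-3p, rno-miR-200a-3p, rno-miR-200b-3p, rno-miR-200c-3p and rno-miR-429. The array also held 4 other arms of the family, rno-miR-141-5p, rno-miR-200a-5p, rno-miR-200b-5p and rno-miR-200c-5p. RNA came from INS1 cells, an insulin-secreting rat insulinoma line used as a β-cell model. Cells were cultured for 48 h and then either left without drug or given 125 nM Givinostat, an inhibitor of lysine deacetylases, for 1 h. They then received 150 pg/ml IL-1β with 0.1 ng/ml IFN-γ, or no cytokines, for 6 h or 24 h. The 24 arrays formed 8 groups of 3: Ctrl (neither agent), Cyt (cytokines), Giv_Ctrl (Givinostat alone) and Giv_Cyt (Givinostat and cytokines), each at 6 h and at 24 h. The submitters describe the 3 arrays of a group as technical replicates, so p-values may measure only technical spread.

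MiRs silence mRNAs that pair with their seed, the stretch of bases near the 5′ end. The miR-200 family is a hallmark of epithelial cells, where it keeps the transcription factors ZEB1 and ZEB2 low and with them the loss of epithelial character. In β-cells the family has been tied to apoptosis under stress. Its members fall into subgroups by seed, miR-200b, miR-200c and miR-429 on the one side and miR-200a and miR-141 on the other. They come from a pair of clusters in the genome, with miR-200c and miR-141 in one and miR-200a, miR-200b and miR-429 in the other.

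Mature sequences are shown for the members that were measured above background, 1 from each seed subgroup, because the difference between the subgroups lies in the seed. RefSeq on GRCr8 gave mature sequences for 2 of 5 members and for 4 of 4 other arms. Those of rno-miR-200a-3p, rno-miR-200b-3p and rno-miR-429 were not matched. Sequences run 5′ to 3′, and capitals mark the seed, bases 2 to 8.
rno-miR-141-3p: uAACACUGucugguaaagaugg
rno-miR-200c-3p: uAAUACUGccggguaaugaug
The first has 22 bases and lies at chr4:159209540-159209561 on the minus strand of GRCr8, and the second has 21 bases and lies at chr4:159209969-159209989 on the same strand. Over 21 positions, counted from 1 at the 5′ end, they differed at 4, and 1 of these was in the seed. With the base of rno-miR-200c-3p first, the differences were U4C, C9U, G11U and U17A.

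The array reads each member with a pair of probes, and those of both measured members are shown because they show where the probes of the members differ. Capitals mark probe bases that face a position at which the members differ.
rno-miR-141-3p, shorter probe: ccatcTttaccAgAca
rno-miR-141-3p, longer probe: ccatcTttaccAgAcag
rno-miR-200c-3p, shorter probe: catcAttaccCgGc
rno-miR-200c-3p, longer probe: catcAttaccCgGca
The probes pair with bases 7 to 22 and 6 to 22 of rno-miR-141-3p, and with bases 8 to 21 and 7 to 21 of rno-miR-200c-3p. Each probe differed from the other member at 3 bases. None covers the whole seed, and binding of either member to the probes of the other was not tested. In the design annotation on rn4, the probes of rno-miR-141-3p and rno-miR-200c-3p lie on chromosome 4 and those of rno-miR-200a-3p and rno-miR-200b-3p on chromosome 5, while those of rno-miR-429 carry no position.

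Of the 5 members, 2 were measured above background. The scanner marks each spot that is well above background, and 8 marked spots of the 16 were required to count a miR as measured on an array. rno-miR-141-3p met this on 24 of 24 arrays, with 16 marked spots on each, and rno-miR-200c-3p on 24 of 24 arrays, with 15 to 16 marked spots. rno-miR-200a-3p and rno-miR-429 had 0 marked spots on all 24 arrays, and rno-miR-200b-3p had 1 marked spot on 1 array (24h_Giv_Cyt replicate 1). Both members of the chromosome 4 cluster were thus measured, 1 from each seed subgroup, and none of the other cluster. Of all 758 miRs, 117 were well above background on all arrays and 534 on 0 arrays.

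**Figure D1:**
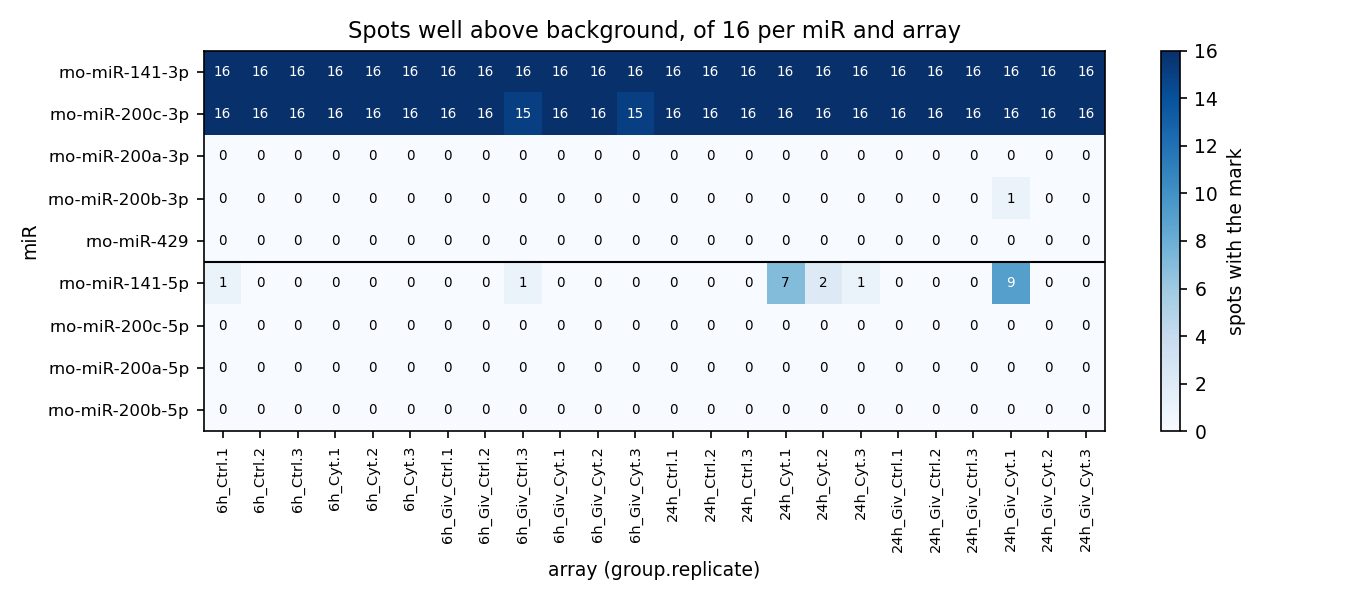
Number of the 16 spots marked well above background (colour and digits) for each member and other arm (vertical axis) on each of the 24 arrays (horizontal axis, by group). rno-miR-141-3p and rno-miR-200c-3p were marked on nearly all spots of every array, whereas rno-miR-200a-3p and rno-miR-429 had 0 marked spots.

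A pair of arrays stood apart from the other arrays of their groups. Over all miRs, 6h_Giv_Ctrl replicate 1 correlated with the others of its group at r = 0.958 and 0.960, and 6h_Giv_Cyt replicate 3 at 0.970 and 0.978. The arrays lay on 4 slides, and 6h_Giv_Ctrl replicate 1 shared slide 1 with 24h_Cyt replicates 1 and 2. These 3 arrays were scanned on day 2 and all others on day 1. Signals below are log2 of the median foreground signal after quantile normalization, averaged over the 16 spots.

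rno-miR-141-3p, of the miR-200a seed subgroup, was followed first. At 24 h its log2 signals were 8.64, 8.43 and 8.91 in 24h_Ctrl and 9.14, 8.98 and 9.25 in 24h_Cyt. They were 8.63, 8.76 and 9.12 in 24h_Giv_Ctrl and 8.84, 8.66 and 8.95 in 24h_Giv_Cyt. The 3 arrays of 24h_Cyt lay above all 3 of 24h_Ctrl and all 3 of 24h_Giv_Cyt, and the Givinostat groups overlapped each other and the controls. At 6 h the signals were 8.68, 9.19 and 9.03 in 6h_Ctrl and 9.30, 8.71 and 9.20 in 6h_Cyt. They were 9.29, 8.76 and 8.87 in 6h_Giv_Ctrl and 8.89, 9.12 and 8.32 in 6h_Giv_Cyt. All 6 h groups overlapped, and both arrays that stood apart were the extreme arrays of their groups, the former the highest and the latter the lowest. By group mean the order ran from 24h_Cyt (9.12 ± 0.13, SD, n = 3) through 6h_Cyt, 6h_Giv_Ctrl, 6h_Ctrl, 24h_Giv_Ctrl, 24h_Giv_Cyt and 6h_Giv_Cyt to 24h_Ctrl (8.66 ± 0.24, n = 3). Every pair of neighbours in that order overlapped.

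rno-miR-200c-3p, which shares its cluster with rno-miR-141-3p but has the miR-200b seed, varied less in log2 signal. At 24 h its log2 signals were 7.27, 7.12 and 7.26 in 24h_Ctrl and 7.22, 7.03 and 7.16 in 24h_Cyt. They were 7.20, 7.03 and 7.26 in 24h_Giv_Ctrl and 6.72, 7.10 and 7.18 in 24h_Giv_Cyt. All 24 h groups overlapped, and the lowest of the 24 values was that of 24h_Giv_Cyt replicate 1. At 6 h they were 6.91, 7.30 and 7.26 in 6h_Ctrl and 7.17, 6.96 and 7.24 in 6h_Cyt. They were 7.29, 6.87 and 7.04 in 6h_Giv_Ctrl and 7.20, 7.10 and 6.81 in 6h_Giv_Cyt, again with overlap of all groups. Group means lay between 7.002 ± 0.24 (24h_Giv_Cyt, SD, n = 3) and 7.22 ± 0.08 (24h_Ctrl, n = 3). Across all 24 arrays rno-miR-200c-3p covered a range of 0.57, against 0.98 for rno-miR-141-3p. Signals were not corrected for background. Before normalization they were 107 to 257 for rno-miR-200c-3p and 284 to 1371 for rno-miR-141-3p, against 39.9 to 56.3 for the members at background. Background makes up more of the dimmer signal and narrows its log2 range, so these ranges are not on a like scale. The part of background in their difference was not tested.

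**Figure D2:**
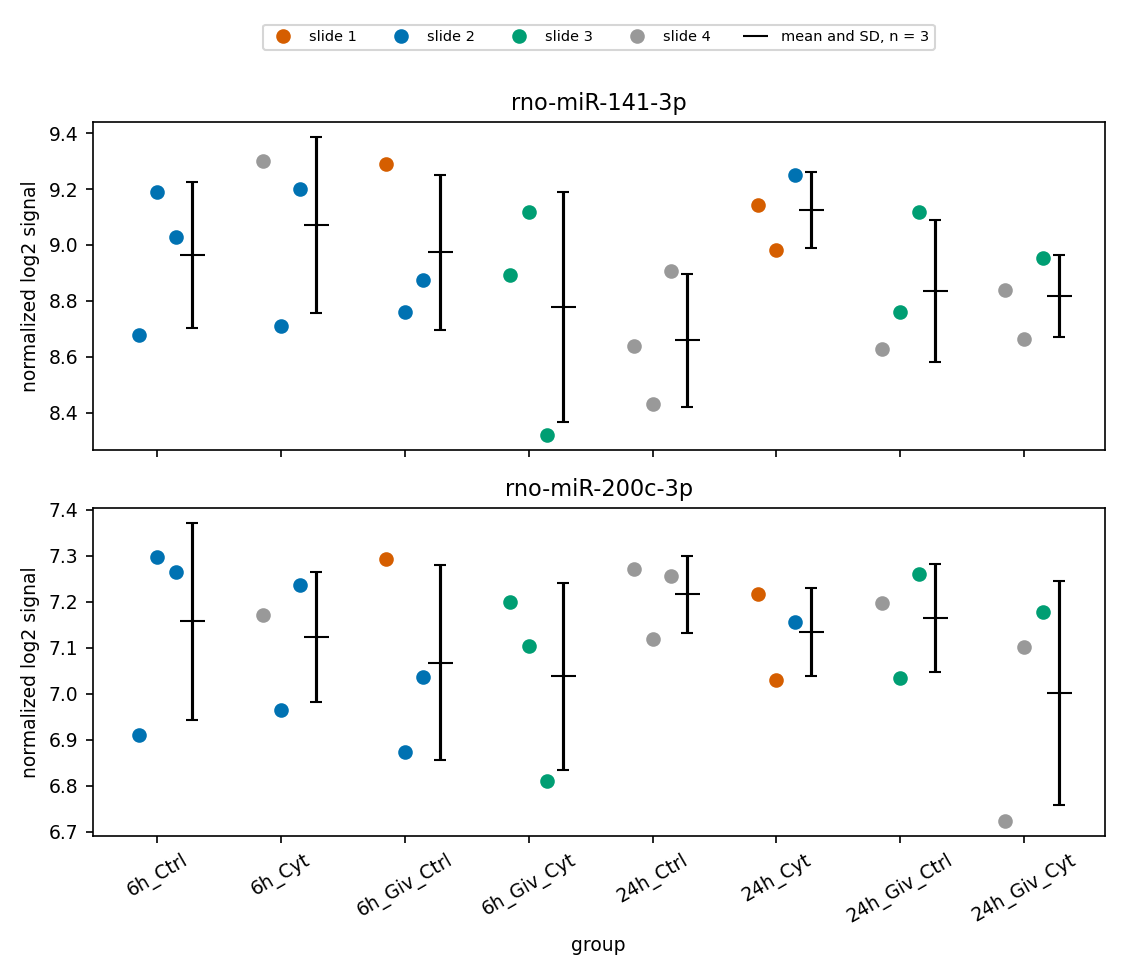
Normalized log2 signal (vertical axis) of rno-miR-141-3p (upper) and rno-miR-200c-3p (lower) in each of the 8 groups (horizontal axis), with 1 point per array coloured by slide and bars for the mean and SD (n = 3). For rno-miR-141-3p the 24h_Cyt arrays (8.98 to 9.25) lay above the 24h_Ctrl arrays (8.43 to 8.91), and for rno-miR-200c-3p all groups overlapped.

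The comparison of 24h_Cyt with 24h_Ctrl asked which miRs respond to cytokines at 24 h. A miR was called when its absolute log2FC was above 0.1375 and its adjusted p in limma below 0.05. Here 0 of 5 members were called, beside 4.09% of all 758 miRs (31 miRs). At an unadjusted p below 0.05 there were 3 members, among 180 miRs: rno-miR-141-3p, which was higher, and rno-miR-200a-3p and rno-miR-429, which were above background on 0 arrays. Limma's pooled correlation fit over spots, the test of the study's methods, called 0 of 5 members and 6.33% of all miRs.

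rno-miR-141-3p was higher in 24h_Cyt than in 24h_Ctrl by a log2FC of 0.47 (SE 0.21, 95% CI 0.03 to 0.91) in all 3 arrays, with p = 0.039 and an adjusted p of 0.181 in limma, and so did not pass the test. Its probes gave 0.36 and 0.57, at mean log2 signals of 8.12 and 10.1 in 24h_Cyt. The pooled fit has no term for the probe, so this difference in level counts in its spread. Its SE for rno-miR-141-3p was 0.24 (adjusted p = 0.215 in the pooled fit), and it is not an independent test. Among the 132 miRs measured on every array of both groups rno-miR-141-3p was number 10 from the highest log2FC, where the median log2FC was -0.05. Groups without overlap were common in this comparison: 1 of the 2 measured members was higher on all arrays, beside 22.7% of these 132 miRs and 16.4% of all 758. rno-miR-200c-3p gave a log2FC of -0.08 (SE 0.14, 95% CI -0.37 to 0.20, adjusted p = 0.757). Its probes gave -0.07 and -0.09, and it was number 81 of 132. Without normalization between arrays its log2FC was 0.77, where the median of the 132 miRs was itself 0.80.

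The value for rno-miR-141-3p moved with the treatment of the arrays. It was 1.47 without normalization between arrays (adjusted p = 0.000467 in limma), against that median of 0.80, 0.72 with slide as a fixed block (adjusted p = 0.695) and 0.12 with array brightness as a covariate (adjusted p = 0.882), a setting chosen after seeing the data. Over all alternatives the log2FC stayed above 0, from 0.12 to 1.47, with adjusted p from 0.000467 to 0.918. 24h_Cyt and 24h_Ctrl shared no slide, so no value within a slide could be had. They shared scan day 1 through 24h_Cyt replicate 3 and all of 24h_Ctrl, and without the slide scanned on day 2 the log2FC was 0.59 (adjusted p = 0.581). This sets 1 array of 24h_Cyt against 3 of 24h_Ctrl, with the lone array assumed to vary like the other groups. With scan day as a fixed block, also chosen after seeing the data, it was 0.37 (adjusted p = 0.406). Slides 1 and 2 held no group of slides 3 and 4 except 6h_Cyt, whose replicate 1 lay on slide 4. Values across these slides with slide as a fixed block, here and below, therefore depend on that 1 array.

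**Figure D3:**
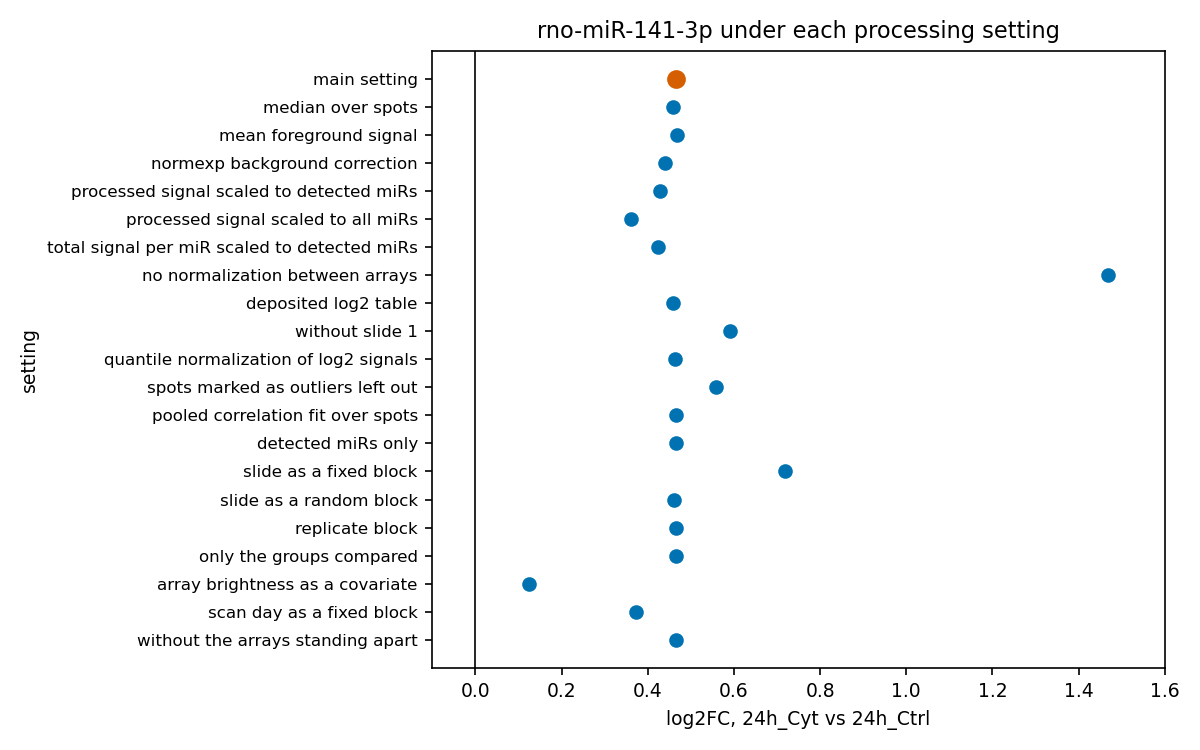
log2FC of rno-miR-141-3p in 24h_Cyt against 24h_Ctrl (horizontal axis) under each processing setting (vertical axis), with the reported value in orange and the alternatives in blue. The values lay between 0.12, with array brightness as a covariate, and 1.47, without normalization between arrays.

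The comparison of 24h_Giv_Cyt with 24h_Cyt asked what Givinostat alters in cells that receive cytokines. Limma called 0 of 5 members, beside 0.132% of all miRs, with 0 members at an unadjusted p below 0.05, and the pooled fit called 0 of 5 members and 3.17% of all miRs. rno-miR-141-3p was lower on all 3 arrays, with a log2FC of -0.31 (SE 0.21, 95% CI -0.75 to 0.13, adjusted p = 0.967). Its log2FC was the third lowest of the 143 miRs measured in both groups, and its probes gave -0.23 and -0.39. It was the 1 of the 2 measured members without overlap, beside 16.8% of these 143 miRs and 10.3% of all miRs lower in the same way. Its log2FC was -0.70 without normalization between arrays (median of the 143 miRs -0.21), -0.64 with slide as a fixed block and -0.16 with brightness as a covariate. For rno-miR-200c-3p the log2FC was -0.13 (SE 0.14, adjusted p = 0.967) and the groups overlapped. These groups, too, shared no slide.

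With Givinostat present, cytokines left rno-miR-141-3p at a log2FC of -0.02 (SE 0.21, 95% CI -0.46 to 0.42) and rno-miR-200c-3p at -0.16 (SE 0.14, 95% CI -0.45 to 0.12) in 24h_Giv_Cyt against 24h_Giv_Ctrl. Limma called 0 of 5 members beside 0.528% of all miRs, with 0 members at an unadjusted p below 0.05, and the pooled fit called 0 of 5 beside 5.67%. Without normalization between arrays the values were 0.43 and 0.34, and with processed signal scaled to all miRs -0.50 and -0.53, where the medians of the 128 miRs measured in both groups were themselves 0.43 and -0.42. Within slide 3 rno-miR-141-3p differed by 0.015 and rno-miR-200c-3p by 0.03 (1 array against 2), and within slide 4 by 0.12 and -0.29 (2 against 1). The difference between the cytokine effects with and without Givinostat at 24 h was tested directly. For rno-miR-141-3p it was -0.48 (SE 0.30, 95% CI -1.10 to 0.14, adjusted p = 0.898 in limma), and for rno-miR-200c-3p it was -0.08 (SE 0.19, adjusted p = 0.982). Over the alternatives that of rno-miR-141-3p ran from -1.04 without normalization between arrays to -0.26 with brightness as a covariate. On this term limma called 0 of 5 members and 0% of all miRs, with 0 members at an unadjusted p below 0.05, and the pooled fit 0 of 5 and 2.9%. A lesser cytokine effect on rno-miR-141-3p under Givinostat was therefore not shown.

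Givinostat without cytokines gave rno-miR-141-3p a log2FC of 0.18 at 24 h (SE 0.21, adjusted p = 0.992) and 0.01 at 6 h (SE 0.21, adjusted p = 0.999). For rno-miR-200c-3p the values were -0.05 and -0.09 (SE 0.14 in both, adjusted p = 0.992 and 0.981). Neither direction of rno-miR-141-3p held, since it ran from -0.03 within slide 4 (1 array against 3) to 0.35 without normalization (median of the measured miRs 0.11) at 24 h, and at 6 h it was -0.15 without 6h_Giv_Ctrl replicate 1 and 0.26 without normalization (median 0.24). In both comparisons limma called 0 of 5 members and 0% of all miRs, with 0 members at an unadjusted p below 0.05. The pooled fit called 0 of 5 members in each, beside 0.396% of all miRs at 24 h and 0.66% at 6 h.

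At 6 h the cytokine comparison gave 0.11 for rno-miR-141-3p (SE 0.21, adjusted p = 0.999) and -0.03 for rno-miR-200c-3p (SE 0.14, adjusted p = 0.999). Here too the direction of rno-miR-141-3p did not hold, at -0.0094 within slide 2 and with slide as a fixed block, and from -0.038 to 0.29 on leaving out each array in turn. Limma called 0 of 5 members and 0% of all miRs, with 0 members at an unadjusted p below 0.05, and the pooled fit 0 of 5 beside 0.264%. In 6h_Giv_Cyt against 6h_Cyt the values were -0.29 and -0.09, with 0 of 5 members and 0% of all miRs called by limma, 0 members at an unadjusted p below 0.05, and 0 of 5 beside 2.77% in the pooled fit. Without 6h_Giv_Cyt replicate 3, which stood apart, the value of rno-miR-141-3p was -0.064, and leaving out each array in turn it ran from -0.47 to -0.064. These groups shared no slide either, and with slide as a fixed block the value was -0.78. In 6h_Giv_Cyt against 6h_Giv_Ctrl they were -0.20 and -0.03. Here both tools called 0 of 5 members and 0% of all miRs. At an unadjusted p below 0.05 there was 1 member (rno-miR-200a-3p, above background on 0 arrays), among 26 of 758 miRs. Without the 2 arrays that stood apart this comparison gave 0.19 for rno-miR-141-3p and 0.20 for rno-miR-200c-3p, and with slide as a fixed block -0.75 and -0.16, so neither direction of change was settled. The difference between the cytokine effects with and without Givinostat at 6 h was -0.30 for rno-miR-141-3p (SE 0.30, adjusted p = 0.999), 0.08 without those arrays and -0.74 with slide as a fixed block. On that term limma called 0 of 5 members and 0% of all miRs, with 0 members at an unadjusted p below 0.05, and the pooled fit 0 of 5 beside 0.132%.

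Comparisons over time also called no member in the reported setting. Between 24 h and 6 h rno-miR-141-3p gave 0.05 in Cyt, 0.04 in Giv_Cyt, -0.31 in Ctrl and -0.14 in Giv_Ctrl (SE 0.21 in each), and all groups overlapped. For rno-miR-200c-3p the same comparisons gave 0.01, -0.04, 0.06 and 0.10 (SE 0.14 in each). Over the alternatives rno-miR-141-3p ran in Cyt from -0.21 with brightness as a covariate to 0.88 without normalization, where limma called it and the median of the measured miRs was itself 0.66. Without normalization limma called from 0 to 323 of all 758 miRs, depending on the comparison or term. In Giv_Cyt rno-miR-141-3p ran from -0.19 without 6h_Giv_Cyt replicate 3 to 0.47 without normalization (median 0.43). In Ctrl it ran from -0.65 with slide as a fixed block to -0.19 without 24h_Ctrl replicate 2, and in Giv_Ctrl from -0.61 with slide as a fixed block to 0.093 with processed signal scaled to all miRs (median 0.16). Limma called 0 of 5 members in each, beside 0.792% of all miRs in Cyt, 0.396% in Giv_Cyt, 0% in Ctrl and 0% in Giv_Ctrl. The pooled fit called 0 of 5 members in each, beside 2.37%, 1.85%, 0.66% and 0.264%. At an unadjusted p below 0.05 there was 1 member in Cyt (rno-miR-429, above background on 0 arrays), among 104 of 758 miRs. There were 0 members in Giv_Cyt, Ctrl and Giv_Ctrl, beside 67, 39 and 30 miRs. The cytokine effect at 24 h minus that at 6 h was 0.36 for rno-miR-141-3p (SE 0.30, 95% CI -0.26 to 0.98, adjusted p = 0.793) and -0.05 for rno-miR-200c-3p (SE 0.19, adjusted p = 0.989). Over the alternatives that of rno-miR-141-3p ran from 0.081 with brightness as a covariate to 1.21 without normalization between arrays. For this term limma called 0 of 5 members beside 0.528% of all miRs, and the pooled fit 0 of 5 beside 2.77%. In limma 1 member (rno-miR-200a-3p, above background on 0 arrays) passed an unadjusted p of 0.05, among 71 of 758 miRs.

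**Figure D4:**
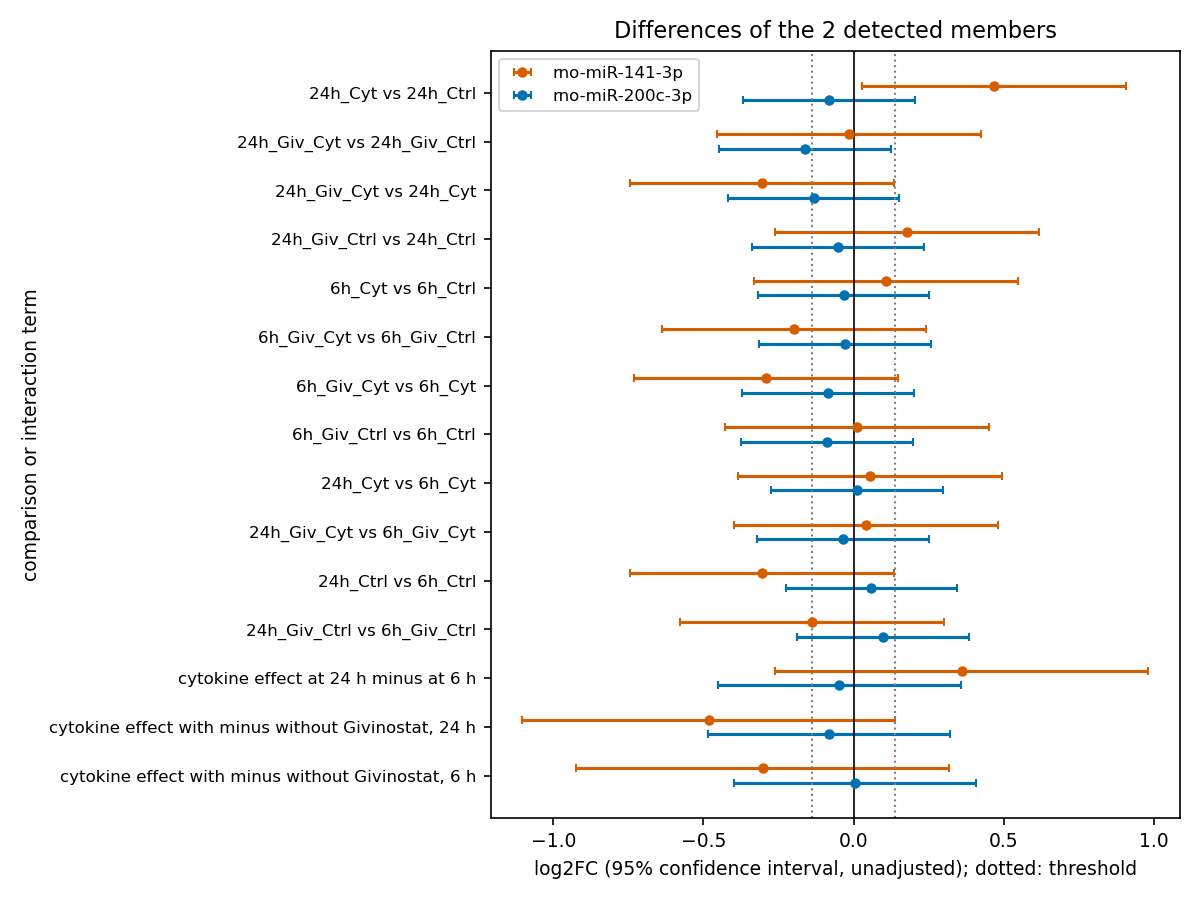
log2FC (horizontal axis) with its unadjusted 95% CI for rno-miR-141-3p and rno-miR-200c-3p in the 12 comparisons and 3 interaction terms (vertical axis). For rno-miR-141-3p the interval of 24h_Cyt against 24h_Ctrl (0.03 to 0.91) lay above 0 before adjustment over 758 miRs, and none of the values was called.

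The members of the chromosome 5 cluster, rno-miR-200a-3p and rno-miR-200b-3p, and rno-miR-429 were not well above background in any group, so no fold is given for them. Their log2 signals lay between 5.38 and 5.61 on all arrays. The 534 miRs that were above background on 0 arrays had a median of 5.46 for their mean signal (5th to 95th percentile 5.34 to 5.72). rno-miR-200a-3p had the lowest p of any member in 24h_Cyt against 24h_Ctrl (adjusted p = 0.0617 in limma), from signals of 5.48 on average in 24h_Ctrl and 5.41 in 24h_Cyt. The pooled fit gave it an adjusted p of 0.0421, with a difference below the log2FC threshold. Signals this close to background carry no order between conditions. Of the other arms, rno-miR-200a-5p, rno-miR-200b-5p and rno-miR-200c-5p were well above background on 0 arrays, and rno-miR-141-5p on 1. Over the 12 comparisons and 3 interaction terms limma called 0 of 4 other arms, beside 0% to 4.09% of all miRs. The pooled fit called 0, beside 0% to 6.33%. In limma 3 values had an unadjusted p below 0.05. rno-miR-200a-5p did so in 24h_Giv_Cyt against 24h_Giv_Ctrl (among 93 of 758 miRs) and against 6h_Giv_Cyt (among 67). rno-miR-200c-5p did so in 24h_Cyt against 6h_Cyt (among 104).

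The seed subgroups were set against each other within each array, as the mean log2 signal of rno-miR-200b-3p, rno-miR-200c-3p and rno-miR-429 minus that of rno-miR-200a-3p and rno-miR-141-3p. This difference was -0.98, -0.91 and -1.12 in 24h_Ctrl and -1.22, -1.21 and -1.30 in 24h_Cyt. All 3 arrays of 24h_Cyt were lower, by 0.24 between the means (-1.24 ± 0.05 against -1.003 ± 0.10, SD, n = 3). Those of 24h_Giv_Cyt were all higher than those of 24h_Cyt, by 0.13, and the groups overlapped in the other 10 comparisons, with differences of -0.02 in 24h_Giv_Cyt against 24h_Giv_Ctrl and -0.06 in 6h_Cyt against 6h_Ctrl. Each subgroup held 1 measured member, averaged here with members at background, so 3 of the 5 signals in this difference carry no order between conditions. The mean of the miR-200a subgroup was 7.07 in 24h_Ctrl, 7.27 in 24h_Cyt and 7.11 in 24h_Giv_Cyt. That of the miR-200b subgroup was 6.07, 6.02 and 5.998. The only measured member of the miR-200a subgroup was rno-miR-141-3p, which was not called, so this is not a result about a subgroup.

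For the clusters, the mean of rno-miR-200a-3p, rno-miR-200b-3p and rno-miR-429 minus that of rno-miR-200c-3p and rno-miR-141-3p was -2.48, -2.28 and -2.60 in 24h_Ctrl and -2.75, -2.55 and -2.74 in 24h_Cyt. The groups overlapped, with a shift of -0.23. Since 0 members of the chromosome 5 cluster were above background, this comparison sets the measured cluster against background. Within the chromosome 4 cluster, rno-miR-141-3p minus rno-miR-200c-3p was 1.37, 1.31 and 1.65 in 24h_Ctrl and 1.93, 1.95 and 2.09 in 24h_Cyt. The arrays of 24h_Cyt were all higher, by 0.55 between the means. The mean of 24h_Ctrl (1.44) was the lowest of the 8 groups, and its arrays were also all lower than those of 6h_Ctrl (mean 1.81), with a difference of -0.36. From 6h_Cyt to 24h_Cyt this quantity differed by 0.04, with overlap. A difference within an array does not by itself show which member changed. Taken alone, in 24h_Cyt against 24h_Ctrl rno-miR-141-3p gave a log2FC of 0.47 and rno-miR-200c-3p one of -0.08. Limma called neither. The differences between seed subgroups, clusters and these members were not tested, and the share of other miR pairs without overlap was not counted. Singly, 22.7% of the 132 miRs measured in both 24h_Cyt and 24h_Ctrl were higher on all arrays of 24h_Cyt.

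The brightness of the arrays before normalization moved with the cytokine groups at 24 h. The 75th percentile of the processed signal, over miRs measured on every array, was 347 (271 to 347) in 24h_Ctrl, 742 (596 to 1003) in 24h_Cyt, 435 in 24h_Giv_Ctrl and 542 in 24h_Giv_Cyt, as medians of 3 arrays. At 6 h it was 320 in 6h_Ctrl, 387 in 6h_Cyt, 401 in 6h_Giv_Ctrl and 374 in 6h_Giv_Cyt. Over the 24 arrays the normalized signal of rno-miR-141-3p correlated with log2 brightness at r = 0.41 and that of rno-miR-200c-3p at r = -0.04, where the median of 117 miRs was -0.07. The arrays of 24h_Cyt and 24h_Ctrl did not overlap in brightness. The covariate fit given above therefore cannot tell brightness apart from the cytokines in this comparison. The part of brightness in the 24h_Cyt value of rno-miR-141-3p was not tested.

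**Figure D5:**
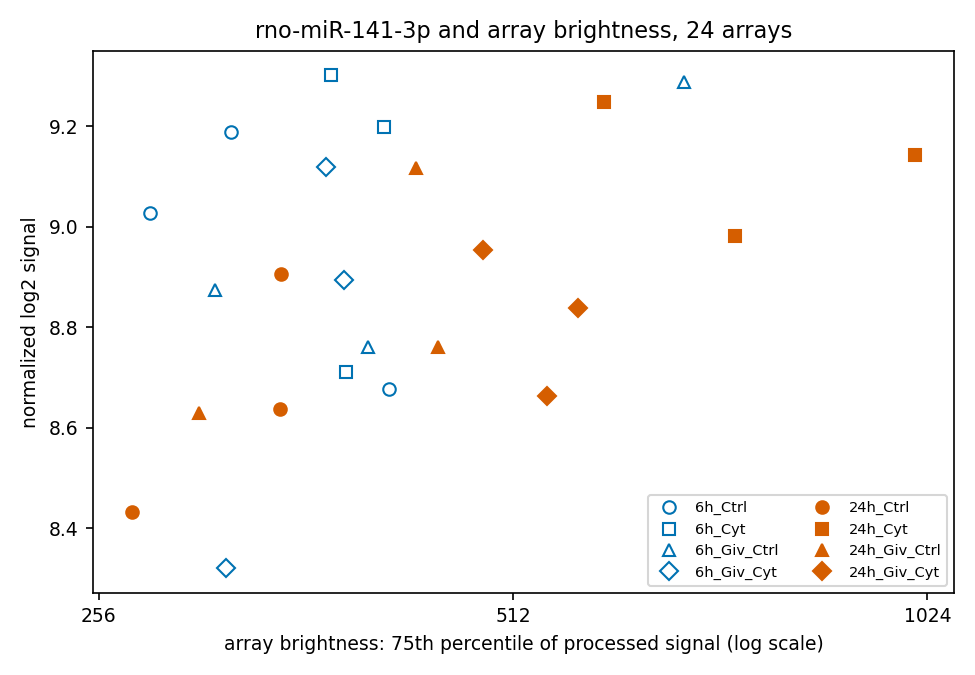
Normalized log2 signal of rno-miR-141-3p (vertical axis) against array brightness, the 75th percentile of processed signal (horizontal axis, log scale), with 1 point per array and a symbol per group. The 24h_Cyt arrays lay between 596 and 1003 and the 24h_Ctrl arrays between 271 and 347, with r = 0.41 over the 24 arrays.

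Among the 116 other miRs above background on all arrays, those most like rno-miR-141-3p over the 24 arrays were rno-miR-30e-5p (r = 0.91), rno-miR-340-5p (0.89) and rno-miR-153-3p (0.87). rno-miR-200c-3p, its neighbour in the genome, was number 41 (r = 0.53). The correlation of these members was 0.72 within groups and -0.05 over the 8 group means. Those most like rno-miR-200c-3p were rno-miR-331-3p (0.91), rno-miR-324-5p (0.88) and rno-miR-128-3p (0.87), with rno-miR-141-3p as number 51. These values are descriptions over arrays that share groups, slides and normalization. In 24h_Cyt against 24h_Ctrl the miRs most like rno-miR-141-3p gave log2FC of 0.34 (rno-miR-30e-5p, adjusted p = 0.123), 0.40 (rno-miR-340-5p, adjusted p = 0.0716) and 0.47 (rno-miR-153-3p, adjusted p = 0.0183), and the last was called. In the same order, these miRs correlated with brightness over the 24 arrays at r = 0.53, 0.56 and 0.69, where the median of 117 miRs was -0.07. The part of brightness in their values was not tested.

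Lists of miRs that mark cell types were counted on the same arrays. Of 4 islet endocrine miRs, 2 were above background on all arrays, rno-miR-375-3p (log2 signal 9.65 to 10.3) and rno-miR-7a-5p (10.5 to 11.2), and 1 on none (rno-miR-184). Of 3 epithelial miRs outside the family, 0 were above background on all arrays. In 24h_Cyt against 24h_Ctrl limma called 1 of these 3, rno-miR-203a-3p (adjusted p = 0.00364), beside 4.09% of all miRs. Its log2 signals (5.56 to 5.93) were well above background on only 2 of 24 arrays, so no direction is given. The others of the list, above background on 0 arrays, were not called. Of 5 mesenchymal miRs, 0 were above background on all arrays and 4 on none, while rno-miR-214-3p was on 13. Of 4 muscle miRs, 1 was above background on all arrays (rno-miR-206-3p) and 2 on none (rno-miR-133a-3p and rno-miR-133b-3p), while rno-miR-1-3p was on 3. The liver miR rno-miR-122-5p and all 5 blood cell miRs were above background on 0 arrays. Of the blood cell miRs limma called 1 of 5 (rno-miR-223-3p) in 24h_Cyt against 24h_Ctrl (adjusted p = 0.0175, beside 4.09% of all miRs) and in 24h_Cyt against 6h_Cyt (adjusted p = 0.0494, beside 0.792%), from signals not well above background, which carry no order. None of the islet endocrine, mesenchymal, muscle or liver miRs was called in 24h_Cyt against 24h_Ctrl.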

How the data were processed

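The authors deposited 1 scanner file per array, with linear spot intensity not normalized between arrays, written by Agilent Feature Extraction 10.7.3.1 per the file headers (9.1 in the submitters' processing notes), with probe positions on rn4. They also deposited a table of log2 values, 1 per miR and array. Its 18192 values differed by at most 4.94e-09 from the median over 16 spots of linearly quantile-normalized signals, and its column medians lay between 5.52 and 5.54.

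From the scanner files, median foreground intensity was used without background correction. Control spots (434 negative, 281 positive) were dropped. Quantile normalization of the 24 arrays on the linear scale was followed by log2, and the 16 spots of each of 758 miRs were averaged. limma 3.58.1 in R 4.3.3 (lmFit, eBayes) was fitted to all arrays with 8 group means (16 residual degrees of freedom), for 12 comparisons and 3 interaction terms, with Benjamini-Hochberg adjustment over 758 miRs. The study's methods fit the spots with a pooled correlation. The array mean was tested here because spots of an array share their RNA, and a pooled fit was run beside it, with a correlation of 0.0373 estimated here. The code was tested on simulated data. Plots used Python 3.11.15 with matplotlib 3.10.9.

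Alternatives were the pooled fit, the median over spots, mean foreground signal, normexp (offset 50), processed or total signal scaled to a 75th percentile, no normalization, the deposited table, measured miRs alone, slide or replicate blocks, leaving out slide 1 or each array, fitting only the compared groups, and no log2FC threshold.

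The members and lists were chosen with earlier results of these data known. Named are all members, their other arms, the 3 most similar miRs of each measured member, and marker miRs that were called or most abundant in their list. The rule of 8 marked spots was set after the data were seen, as were quantile normalization of log2 signals, a covariate for array brightness, scan day as a block, the removal of outlier spots, and leaving out the arrays that stood apart. Where signals were floored (4.44 for processed and 1 for total signal), miRs without any variation within groups were left out of the fit, which was also decided after the data were seen. The 3 arrays per group limit the precision.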

Additional observations from a re-analysis of the deposited data

Results flagged for a closer look

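rno-miR-141-5p, the other arm of the hairpin that gives rno-miR-141-3p, was marked well above background on 9 of 16 spots of 1 array, 24h_Giv_Cyt replicate 1. On the 6 control arrays of both times the highest number was 1. On 24h_Cyt replicates 1, 2 and 3 the numbers were 7, 2 and 1, and 6 arrays had any mark. It drew attention because it is a signal outside the members with more marked spots than in the controls. The arrays with the most marks for it, 24h_Giv_Cyt replicate 1 and 24h_Cyt replicate 1, were also those with the most miRs well above background of all 24 arrays, 197 and 211, against 134 to 150 in 24h_Ctrl. 6h_Giv_Cyt replicate 3 had the highest log2 signal of rno-miR-141-5p (5.94, against 5.90 on 24h_Giv_Cyt replicate 1) and 0 marks. The part of the arrays in these marks was not tested.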

How the results depend on the processing

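Limma called 0 of 5 members in all 12 comparisons and 3 interaction terms under every setting except 1. Without normalization between arrays it called rno-miR-141-3p and rno-miR-200c-3p in 24h_Cyt against 24h_Ctrl and in 24h_Cyt against 6h_Cyt (2 members each), rno-miR-200c-3p and rno-miR-200b-3p (2), the latter above background on 0 arrays, in 24h_Giv_Cyt against 24h_Giv_Ctrl, and rno-miR-200c-3p (1) on the difference of the cytokine effects between times. In this setting limma called from 0 to 323 of all 758 miRs over the 12 comparisons and 3 interaction terms. The seed subgroup shift was then -0.45 and the cluster shift -1.16, and scaling processed signal to all miRs gave a cluster shift of -0.084. The cause was not tested. In 24h_Cyt against 24h_Ctrl the 31 calls over all miRs became 48 in the pooled fit, 173 without normalization, 77, 13 and 65 with processed signal scaled to detected miRs, to all miRs and with total signal, 3 without slide 1 (1 array of 24h_Cyt left, assumed to vary like the other groups), 1 with slide as a fixed block, 3 with brightness as a covariate, 19 with scan day as a fixed block and 55 without the arrays that stood apart. Leaving out single arrays gave 14 without 24h_Ctrl replicate 2, 20 without 24h_Ctrl replicate 1, 17 and 16 without 24h_Cyt replicates 1 and 2, and up to 44 for the others. Of the calls 64.5% were higher, against 30.8% with processed signal scaled to all miRs and 100% without normalization or without slide 1. With processed signal scaled to detected or all miRs and with total signal, 51.3%, 53.4% and 59.6% of the 758 miRs had no variation within groups and were left out, so 369, 353 and 306 were tested.

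Replicate numbers showed no clear pairing of the arrays. For each array, deviations from the group mean were taken over the 117 miRs above background on all arrays. Between groups these deviations correlated above 0.1 in 42 of 84 same-numbered pairs (median r = 0.098). Pairs with different numbers did so in 82 of 168 (median r = -0.019). The deviations of 8 of 24 arrays correlated best with those of an array of the same number. With the replicate block, 24h_Cyt against 24h_Ctrl had 30 calls, and rno-miR-141-3p kept a log2FC of 0.47 (adjusted p = 0.204, over all alternatives 0.000467 to 0.918).

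Under all alternatives rno-miR-141-3p kept its sign in 24h_Cyt vs 24h_Ctrl, 24h_Giv_Cyt vs 24h_Cyt, 6h_Giv_Cyt vs 6h_Cyt, 24h_Ctrl vs 6h_Ctrl, the 24 h minus 6 h term and the 24 h Givinostat term, and rno-miR-200c-3p in 0 of the 12 comparisons and 3 terms. The values with the opposite sign follow, and their causes were not tested. Without normalization and with scaled processed or total signal, the median of the measured miRs moved as well, so a changed sign there does not show the member's own direction, and medians over 0.1 in size are given. Without normalization between arrays, rno-miR-141-3p gave 0.43 (24h_Giv_Cyt vs 24h_Giv_Ctrl), and rno-miR-200c-3p gave 0.77 (24h_Cyt vs 24h_Ctrl), 0.34 (24h_Giv_Cyt vs 24h_Giv_Ctrl), 0.092 (24h_Giv_Ctrl vs 24h_Ctrl), 0.11 (6h_Cyt vs 6h_Ctrl), 0.19 (6h_Giv_Ctrl vs 6h_Ctrl), 0.38 (24h_Giv_Cyt vs 6h_Giv_Cyt), -0.086 (24h_Giv_Ctrl vs 6h_Giv_Ctrl), 0.67 (the 24 h minus 6 h term) and -0.22 (the 6 h Givinostat term). In the first 7 comparisons named for rno-miR-200c-3p the medians over miRs measured in both groups were 0.80, 0.43, 0.11, 0.13, 0.24, 0.43 and -0.13. With processed signal scaled to detected miRs, rno-miR-141-3p gave 0.043 (24h_Giv_Cyt vs 24h_Giv_Ctrl), -0.12 (6h_Giv_Ctrl vs 6h_Ctrl) and -0.013 (24h_Giv_Cyt vs 6h_Giv_Cyt), and rno-miR-200c-3p gave 0.012 (24h_Giv_Cyt vs 24h_Giv_Ctrl), 0.0077 (24h_Giv_Cyt vs 24h_Cyt), 0.13 (6h_Giv_Cyt vs 6h_Giv_Ctrl), 0.060 (6h_Giv_Cyt vs 6h_Cyt) and 0.13 (the 24 h Givinostat term), where the medians were 0.12 (24h_Giv_Cyt vs 24h_Giv_Ctrl), 0.12 (24h_Giv_Cyt vs 24h_Cyt) and 0.19 (6h_Giv_Cyt vs 6h_Giv_Ctrl). Scaled to all miRs instead, rno-miR-141-3p gave -0.0013 (6h_Cyt vs 6h_Ctrl), -0.15 (6h_Giv_Ctrl vs 6h_Ctrl), -0.19 (24h_Giv_Cyt vs 6h_Giv_Cyt) and 0.093 (24h_Giv_Ctrl vs 6h_Giv_Ctrl), and rno-miR-200c-3p gave 0.049 (24h_Giv_Ctrl vs 24h_Ctrl) and -0.014 (24h_Cyt vs 6h_Cyt), where the medians were -0.17 (24h_Giv_Cyt vs 6h_Giv_Cyt) and 0.16 (24h_Giv_Ctrl vs 6h_Giv_Ctrl). With total signal per miR, rno-miR-141-3p gave 0.032 (24h_Giv_Cyt vs 24h_Giv_Ctrl), -0.10 (6h_Giv_Ctrl vs 6h_Ctrl) and -0.027 (24h_Giv_Cyt vs 6h_Giv_Cyt), and rno-miR-200c-3p gave 0.0052 (24h_Giv_Cyt vs 24h_Giv_Ctrl), 0.0085 (24h_Giv_Cyt vs 24h_Cyt), 0.11 (6h_Giv_Cyt vs 6h_Giv_Ctrl), 0.034 (6h_Giv_Cyt vs 6h_Cyt), -0.0043 (24h_Cyt vs 6h_Cyt) and 0.14 (the 24 h Givinostat term), where the medians were 0.11 (24h_Giv_Cyt vs 24h_Giv_Ctrl) and 0.21 (6h_Giv_Cyt vs 6h_Giv_Ctrl). Leaving out spots marked as outliers, rno-miR-141-3p gave 0.091 (24h_Giv_Cyt vs 24h_Giv_Ctrl), and rno-miR-200c-3p gave -0.022 (24h_Ctrl vs 6h_Ctrl) and 0.066 (the 24 h minus 6 h term). With slide as a fixed block, rno-miR-141-3p gave 0.069 (24h_Giv_Cyt vs 24h_Giv_Ctrl), -0.0094 (6h_Cyt vs 6h_Ctrl) and -0.037 (6h_Giv_Ctrl vs 6h_Ctrl), and rno-miR-200c-3p gave -0.067 (24h_Cyt vs 6h_Cyt), 0.035 (24h_Giv_Cyt vs 6h_Giv_Cyt), -0.012 (24h_Ctrl vs 6h_Ctrl) and -0.10 (the 6 h Givinostat term). With slide as a random block, rno-miR-141-3p gave -0.0042 (6h_Giv_Ctrl vs 6h_Ctrl), and rno-miR-200c-3p gave -0.0068 (24h_Cyt vs 6h_Cyt) and -0.010 (the 6 h Givinostat term). Without the arrays that stood apart, rno-miR-141-3p gave 0.19 (6h_Giv_Cyt vs 6h_Giv_Ctrl), -0.15 (6h_Giv_Ctrl vs 6h_Ctrl), -0.19 (24h_Giv_Cyt vs 6h_Giv_Cyt), 0.017 (24h_Giv_Ctrl vs 6h_Giv_Ctrl) and 0.082 (the 6 h Givinostat term), and rno-miR-200c-3p gave 0.20 (6h_Giv_Cyt vs 6h_Giv_Ctrl) and 0.028 (6h_Giv_Cyt vs 6h_Cyt). With the median over spots, and so in the deposited log2 table, rno-miR-141-3p gave -0.10 (6h_Giv_Ctrl vs 6h_Ctrl), and rno-miR-200c-3p gave 0.0030 (6h_Giv_Cyt vs 6h_Giv_Ctrl). Without slide 1, rno-miR-141-3p gave -0.15 (6h_Giv_Ctrl vs 6h_Ctrl) and 0.017 (24h_Giv_Ctrl vs 6h_Giv_Ctrl), and rno-miR-200c-3p gave 0.084 (6h_Giv_Cyt vs 6h_Giv_Ctrl). With array brightness as a covariate, rno-miR-141-3p gave -0.10 (6h_Giv_Ctrl vs 6h_Ctrl), -0.21 (24h_Cyt vs 6h_Cyt) and -0.12 (24h_Giv_Cyt vs 6h_Giv_Cyt), and rno-miR-200c-3p gave -0.073 (24h_Cyt vs 6h_Cyt). With scan day as a fixed block, rno-miR-141-3p gave -0.037 (6h_Giv_Ctrl vs 6h_Ctrl) and -0.040 (24h_Cyt vs 6h_Cyt), and rno-miR-200c-3p gave 0.021 (6h_Giv_Cyt vs 6h_Giv_Ctrl), -0.091 (24h_Cyt vs 6h_Cyt) and 0.020 (the 24 h Givinostat term). Within a slide, rno-miR-141-3p gave 0.015 and 0.12 (24h_Giv_Cyt vs 24h_Giv_Ctrl, slides 3 and 4), -0.030 (24h_Giv_Ctrl vs 24h_Ctrl, slide 4), -0.0094 (6h_Cyt vs 6h_Ctrl, slide 2) and -0.15 (6h_Giv_Ctrl vs 6h_Ctrl, slide 2), and rno-miR-200c-3p gave 0.031 (24h_Giv_Cyt vs 24h_Giv_Ctrl, slide 3) and 0.14 (24h_Giv_Cyt vs 6h_Giv_Cyt, slide 3).

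With each array left out in turn, rno-miR-141-3p ran from -0.12 to 0.12 (24h_Giv_Cyt vs 24h_Giv_Ctrl), -0.038 to 0.29 (6h_Cyt vs 6h_Ctrl), -0.37 to 0.031 (6h_Giv_Cyt vs 6h_Giv_Ctrl), -0.15 to 0.12 (6h_Giv_Ctrl vs 6h_Ctrl), -0.13 to 0.17 (24h_Cyt vs 6h_Cyt), -0.19 to 0.21 (24h_Giv_Cyt vs 6h_Giv_Cyt) and -0.28 to 0.017 (24h_Giv_Ctrl vs 6h_Giv_Ctrl), and rno-miR-200c-3p ran from -0.22 to 0.0059 (24h_Giv_Cyt vs 24h_Cyt), -0.10 to 0.014 (24h_Giv_Ctrl vs 24h_Ctrl), -0.16 to 0.046 (6h_Cyt vs 6h_Ctrl), -0.13 to 0.085 (6h_Giv_Cyt vs 6h_Giv_Ctrl), -0.17 to 0.028 (6h_Giv_Cyt vs 6h_Cyt), -0.21 to 0.0075 (6h_Giv_Ctrl vs 6h_Ctrl), -0.069 to 0.067 (24h_Cyt vs 6h_Cyt), -0.15 to 0.10 (24h_Giv_Cyt vs 6h_Giv_Cyt), -0.065 to 0.13 (24h_Ctrl vs 6h_Ctrl), -0.00024 to 0.21 (24h_Giv_Ctrl vs 6h_Giv_Ctrl), -0.13 to 0.076 (the 24 h minus 6 h term), -0.17 to 0.057 (the 24 h Givinostat term) and -0.093 to 0.13 (the 6 h Givinostat term). Elsewhere no sign changed on leaving out an array. Signal over background limits the members: no setting could give a fold for rno-miR-200a-3p, rno-miR-200b-3p or rno-miR-429.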
